A study of Mus musculus with 6 samples.

Results

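The gp130 cytokine family was described here by 10 genes: the ligands Il6, Il11 and Lif, the shared signalling receptor Il6st (gp130 itself), the ligand-specific receptors Il6ra, Il11ra1, Lifr and Osmr, the transcription factor Stat3 and its feedback inhibitor Socs3. They were chosen by name with the nasal minus rib difference of these same arrays in view, Il11 having stood among the largest differences on the rib side. Their differences between the cartilages are therefore a description and carry no test. A probe set, the group of array probes that reads 1 RefSeq transcript, was matched for 9 of the 10 genes, out of 19932 genes in all. Il11ra1 was not analysed here, so the receptor chain that binds interleukin 11 has no value below.

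Chondrocytes, the cells that make cartilage, were taken from untreated wild-type mice of the ICR strain. The nasal septum was sampled at embryonic day 17.5 (n = 3 arrays) and the rib at postnatal day 1 (n = 3 arrays), and the labels call the arrays of a group biological replicates. The labels do not say whether a replicate was 1 animal, 1 litter or a pool. The p-values below set each difference against the spread between these samples, whatever a sample was. Site and age change together and cannot be told apart in any difference below. The series links such arrays to Sox9 binding in chondrocytes, and the Sox9 maps were not used here.

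Cytokines of this family differ in the receptor chain that recognises them, but most of them signal through gp130. Interleukin 6 and interleukin 11 each bind their own alpha chain, which then recruits gp130, whereas leukaemia inhibitory factor pairs gp130 with Lifr and oncostatin M pairs it with Osmr. Janus kinases bound to these receptors phosphorylate Stat3, which enters the nucleus and induces, among others, Socs3, a protein that shuts the receptor down. In the skeleton the family acts on chondrocytes, osteoblasts and osteoclasts, and loss of the interleukin 11 receptor in humans disturbs the growth of the skull sutures.

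Every array had been scaled to a 2% trimmed mean intensity of 500, and Pearson correlations of whole arrays were 0.987 to 0.993 for pairs from 1 cartilage and 0.957 to 0.968 for pairs from different ones. The 10 chondrocyte markers checked, Col2a1, Acan and Sox9 among them, had summed intensities of 102538 to 105014 on the nasal arrays and 95681 to 104924 on the rib arrays, and no single value of theirs lay under 3648. Sox9 was the 1 of them past the threshold, with 7548 in nasal and 9189 in rib (limma adjusted p = 0.0491). Over all genes, 28.5% passed a limma adjusted p of 0.05 (5683 genes). Nasal was the higher cartilage for 13.8% (2746 genes) and rib for 14.7% (2937 genes). Without rib replicate 2 the count was 3466, of which nasal was higher in 1639 and rib in 1827, and without nasal replicate 2 the rib side had 1953. The median gene lay 0.11 (log2) towards nasal as deposited and at -0.00153 after quantile normalization. As deposited, a difference near 0.11 on the nasal side is thus no larger than that of the typical gene over all intensities. Over the 9966 genes at or above the median gene in mean intensity, the median difference was -0.069, on the rib side. The 0.11 is therefore no measure of the typical bright gene.

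Il11 was 6.76-fold higher in rib, whereas Lif, Osmr, Stat3, Socs3 and Il6st were higher in nasal, by 1.37-fold to 2.39-fold. Il6 was higher in nasal by 3.13-fold, but it was dim on all 6 arrays, and its log2 difference of 1.64 came to 0.84 on the scale of log2(intensity + 50). Il6ra and Lifr lay close together in both cartilages. Of the 9 genes, 7 passed the adjusted p of 0.05, 6 with more in nasal and 1, Il11, with more in rib, where the background over all genes is 28.5%, 13.8% and 14.7%. The 3 nasal and 3 rib values did not overlap in 7 of the 9, 6 of them higher in nasal, as they did not in 45.7% of all genes (24% higher in nasal). The members were picked with this contrast known, and nothing is read from these counts. The median difference of the 9 genes was 0.67, beside 0.11 for all genes.

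**Figure D1:**
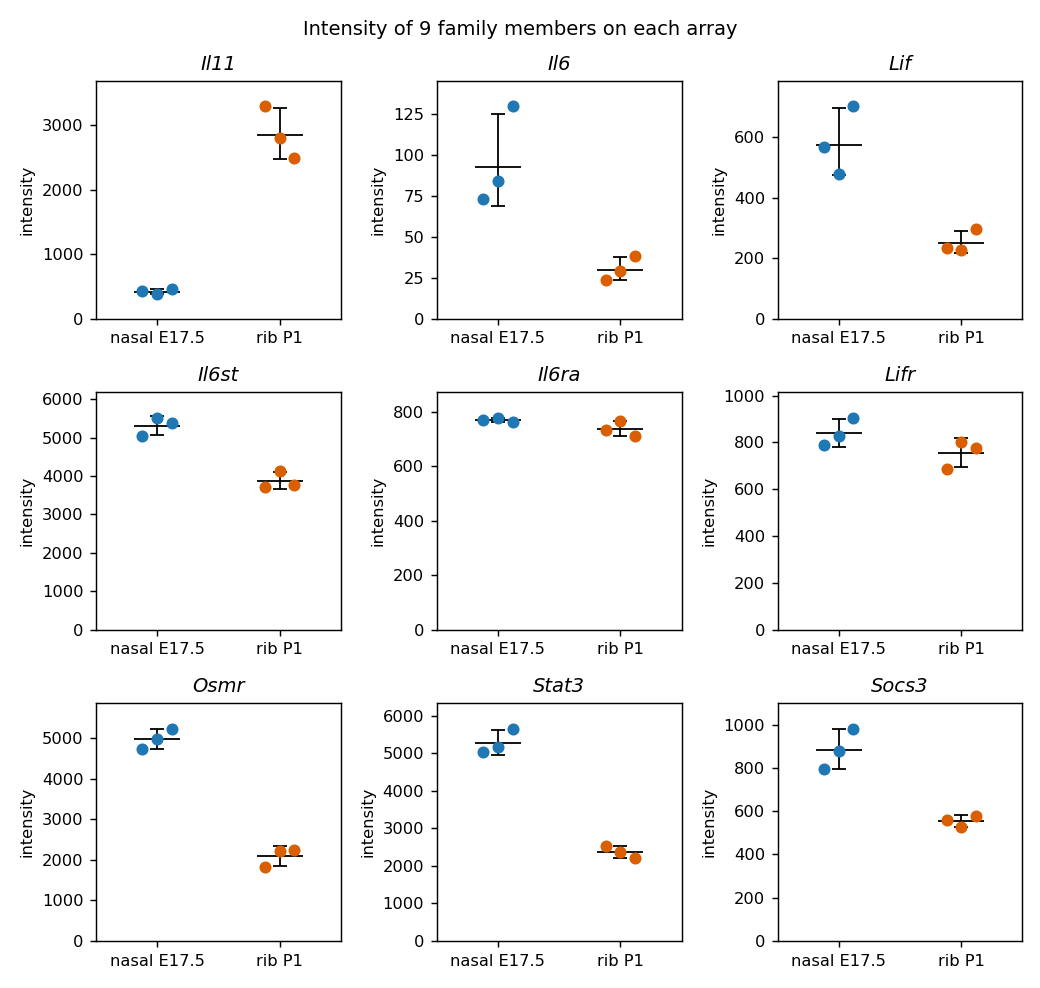
Intensity (linear scale, from 0) of the 9 measured members on each of the 6 arrays, with nasal septum at embryonic day 17.5 in blue and rib at postnatal day 1 in orange. Each point is 1 array, the bar is the geometric mean and the whiskers are 1 SD on the log2 scale (n = 3). Il11 alone has its rib points, 2493 to 3291, above its nasal points, 388 to 452.

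Il11 encodes interleukin 11, a cytokine first known from marrow stroma that also acts on bone and connective tissue. Its intensity was 423, 388 and 452 in nasal replicates 1 to 3 and 3291, 2798 and 2493 in rib replicates 1 to 3. The lowest rib array was 5.51-fold above the highest nasal array, so the groups lay far apart against the spread within either. The log2 difference was -2.76 (SE 0.13), the 7th largest towards rib among the 19932 genes. None of its 6 values lay under the median intensity of its array.

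Il6, the founding cytokine of the family and a driver of the acute-phase response, ran the other way but was dim. It had 73.3, 83.8 and 130 in nasal and 23.7, 28.8 and 38.0 in rib, a 3.13-fold difference (log2 1.64, SE 0.25). All 3 rib values and 2 of the 3 nasal values lay below the first quartile of their arrays. No detection call was used, so whether Il6 stood above background in either cartilage is unknown. The scale of log2(intensity + 50), on which its difference was 0.84, damps differences of dim genes.

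Lif, which encodes leukaemia inhibitory factor, a cytokine that keeps mouse embryonic stem cells undifferentiated, was also higher in nasal. The nasal arrays gave 568, 478 and 701 and the rib arrays 233, 228 and 297, which did not overlap. Its difference of 2.29-fold (log2 1.20, SE 0.17) was found in both of its probe sets, the other giving 1.20 as well. Among the ligands, Lif was thus higher where Il11 was lower, and so were the dim values of Il6.

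The promoters of these ligands are shown because the 3 genes went in opposite directions. Each line holds the 250 bases before an annotated start in RefSeq (GRCm38.p6), 5′ to 3′ on the strand of the gene, and capitals mark a match to the AP-1 motif TGANTCA, the element bound by Fos and Jun proteins. Il11 has a pair of annotated starts, an upstream one (chr7:4782858-4783107, minus strand) and a downstream one (chr7:4778142-4778391, minus strand). The Il6 window is chr5:30012864-30013113, plus strand, and the Lif window chr11:4257318-4257567, plus strand.
Il11 upstream start: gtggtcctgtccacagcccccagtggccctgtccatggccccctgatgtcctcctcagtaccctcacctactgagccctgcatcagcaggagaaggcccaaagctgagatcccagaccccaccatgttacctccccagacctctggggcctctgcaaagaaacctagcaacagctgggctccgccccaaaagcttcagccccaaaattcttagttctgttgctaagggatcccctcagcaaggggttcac
Il11 downstream start: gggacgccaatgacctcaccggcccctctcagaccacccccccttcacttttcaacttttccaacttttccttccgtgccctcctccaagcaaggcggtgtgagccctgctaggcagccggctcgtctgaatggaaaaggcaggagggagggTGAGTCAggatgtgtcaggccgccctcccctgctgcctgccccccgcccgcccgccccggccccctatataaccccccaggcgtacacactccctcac
Il6: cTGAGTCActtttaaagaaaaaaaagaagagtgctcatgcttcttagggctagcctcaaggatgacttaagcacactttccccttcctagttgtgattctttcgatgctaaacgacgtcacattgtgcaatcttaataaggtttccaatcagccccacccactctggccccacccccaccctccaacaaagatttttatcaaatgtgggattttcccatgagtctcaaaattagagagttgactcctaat
Lif: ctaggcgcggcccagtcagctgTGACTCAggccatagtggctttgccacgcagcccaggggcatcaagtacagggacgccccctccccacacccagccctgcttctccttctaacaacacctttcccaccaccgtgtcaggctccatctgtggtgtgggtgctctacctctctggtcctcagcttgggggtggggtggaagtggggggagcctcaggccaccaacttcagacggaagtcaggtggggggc

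The AP-1 letters were found once in each of the 3 ligand genes and in none of the other 7 family genes, whose windows include those of Il11ra1. In Il11 they lay 98 to 92 bases before the downstream start, in Il6 at 249 to 243 and in Lif at 228 to 222. Of 32851 annotated promoter windows of the same length, 6.75% hold this motif. The 10 family genes have 13 such windows, and the upstream window of Il11 lacks it. The letters were shared by Il11, higher in rib, and by Il6 and Lif, higher in nasal, so they do not follow the direction. A looser NF-kB motif (GGG and CC with any 5 letters between) was searched as well. It was present in 7 of the 10 family genes, the 3 ligands among them, and in 45.8% of all windows. Both strands were searched for each motif. A match describes letters and not binding.

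Il6st encodes gp130, the signalling chain shared by the receptors of Il6, Il11 and Lif. It had 5051, 5519 and 5370 in nasal and 3716, 4129 and 3777 in rib, with no overlap. The difference was modest at 1.37-fold (log2 0.46, SE 0.09). Cyclic loess lowered it to 0.38.

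Osmr, the chain that pairs with gp130 to receive oncostatin M, had the largest difference of the 4 measured receptors. Its intensity was 4738, 4989 and 5237 in nasal against 1817, 2212 and 2255 in rib. The lowest nasal array was 2.10-fold above the highest rib array, and the fold between the means was 2.39 (log2 1.26, SE 0.11). The ligand-specific chains thus did not move as a block.

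Il6ra, the alpha chain for interleukin 6, had 772, 779 and 764 in nasal and 734, 767 and 712 in rib. Rib replicate 2 lay above nasal replicate 3, and the difference of 0.07 (SE 0.08) was smaller than its error. Lifr had 790, 827 and 906 in nasal and 687, 802 and 776 in rib, again overlapping, with a difference of 0.16 (SE 0.10). As deposited, both lie within 0.05 of the median of all genes (-0.05 and 0.04 relative to it). Both were brighter than the median gene, and genes at or above it had a median difference of -0.069. Relative to those brighter genes, Il6ra and Lifr lay further towards nasal. The second probe set of Lifr gave 0.23. Across array scalings Il6ra ran from 0.01 to 0.19 and Lifr from 0.10 to 0.28. After quantile normalization, with the median gene at -0.00153, Il6ra lay at 0.18 and Lifr at 0.26. Under cyclic loess, with the median gene at 0.0074, the 2 lay at 0.19 and 0.28. Their closeness to the median gene thus depends on the scaling and on the genes compared.

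Stat3, the transcription factor that carries the signal of the family to the nucleus, was 2.22-fold higher in nasal (log2 1.15, SE 0.10). The nasal arrays gave 5027, 5164 and 5659 and the rib arrays 2542, 2374 and 2214. The groups were separated by 1.98-fold at their nearest arrays. Its other probe sets, a pair with identical values, gave 1.14.

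Socs3, the feedback inhibitor that binds gp130 and its kinases, had 795, 877 and 981 in nasal and 560, 526 and 576 in rib. It was 1.59-fold higher in nasal (log2 0.67, SE 0.11) with no overlap, a smaller difference than that of Stat3. Its promoter is shown because it was the only 1 of the 10 family genes with the palindromic STAT motif TTCNNNGAA, in capitals, in the 250 bases before an annotated start (chr11:117969367-117969616, minus strand, GRCm38.p6). The match lay 154 to 146 bases before the start, and 7.02% of all windows hold the motif. The 10 family genes have 13 such windows, so a match in 1 of them is near that share and sets Socs3 apart by its letters only.
Socs3: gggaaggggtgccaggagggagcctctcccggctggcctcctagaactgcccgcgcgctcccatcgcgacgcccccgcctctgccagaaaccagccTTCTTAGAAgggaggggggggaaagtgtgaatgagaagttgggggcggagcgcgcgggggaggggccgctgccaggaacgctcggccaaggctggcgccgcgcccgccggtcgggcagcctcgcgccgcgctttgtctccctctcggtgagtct

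**Figure D2:**
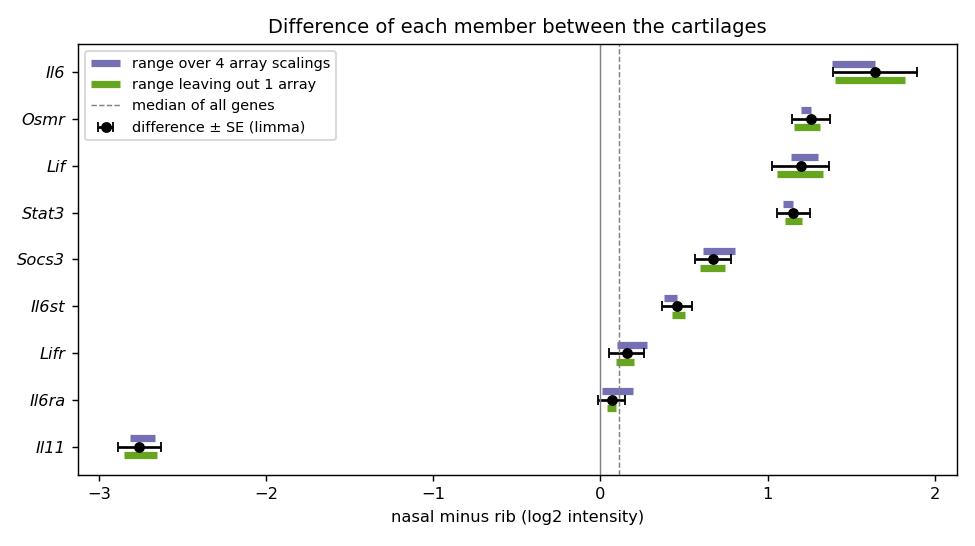
Nasal minus rib difference (log2 intensity) of each member, as the point with its limma standard error. Purple bars span 4 array scalings (as deposited, quantile, median centring and cyclic loess), and green bars the 6 fits that leave out 1 array. The dashed line is the median of all genes as deposited, at 0.11. Il11 stays between -2.85 and -2.65 when 1 array is left out, and the purple bars of Il6ra and Lifr reach the dashed line.

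The signs were the same whichever array was left out and under each of the 4 scalings. Il11 ran from -2.82 to -2.66 over the scalings, Osmr from 1.20 to 1.26 and Stat3 from 1.09 to 1.15. Il6 was the widest, from 1.40 to 1.82 as single arrays were left out. A ratio of 2 genes on the same array is unchanged by a single multiplier per array, though not by quantile normalization or cyclic loess, and in such ratios of the deposited values Il11 was higher in rib by 3.91 (log2) relative to Stat3 and by 3.21 relative to Il6st. The ratio of Il11 to Stat3 on the lowest rib array exceeded that on the highest nasal array by 3.74.

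The rest of the pathway was described with 84 measured genes of 85 in 6 lists, made from general knowledge of the pathway with earlier results of these arrays known. Of these, 42 (50%) passed the limma adjusted p of 0.05, 31 higher in nasal and 11 higher in rib, beside 28.5%, 13.8% and 14.7% of all genes. When only the 9966 genes at or above the median gene were tested, 5841 passed, 2350 higher in nasal and 3491 in rib. In that fit 42 pathway genes passed, 30 higher in nasal and 12 in rib. These came from fewer than 84 genes, as dim ones such as Stat4, Fgg and Tyk2 were not tested there. Beside 5841 of 9966, the 28.5% is a low background for bright genes, and nothing is read from the 50%. The median difference of the 84 genes was 0.22, against 0.11 for all genes. The counts below are from limma with Benjamini-Hochberg adjustment over all genes, and each p in this part is such an adjusted p.

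**Figure D3:**
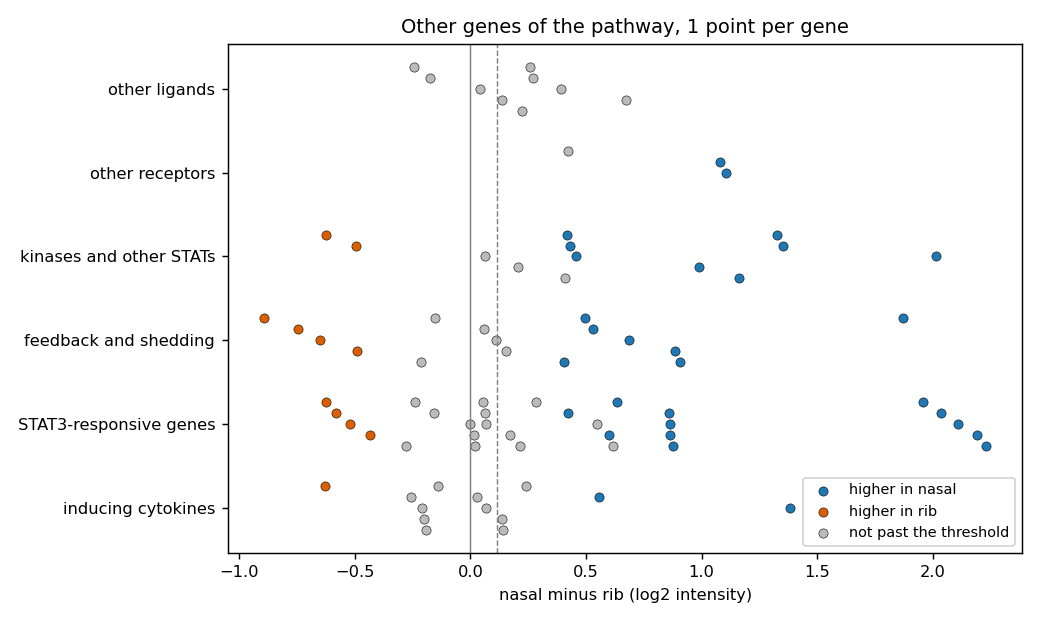
Nasal minus rib difference (log2 intensity) of 84 pathway genes that are not members, 1 point per gene, in 6 lists. Blue points are higher in nasal and orange points higher in rib at a limma adjusted p of 0.05, grey points did not pass, vertical offsets only separate points, and the dashed line marks the median gene at 0.11. The other ligands are all grey, while the kinases and STATs have 8 blue and 2 orange points.

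None of the 9 other ligands passed with limma (0 of 9, 2 of them at an unadjusted p under 0.05, both higher in nasal). The counts ran from 0 to 1 in either direction over the alternatives that tested every gene. The brightest was Clcf1, a ligand of the ciliary neurotrophic factor receptor. It had 876, 836 and 885 in nasal and 701, 921 and 915 in rib, which overlapped (0.04, SE 0.13, adjusted p = 0.813).

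Among the other receptors, 2 of the 3 measured were higher in nasal. Cntfr, the alpha chain for ciliary neurotrophic factor, had 1018, 1144 and 1219 in nasal against 539, 504 and 527 in rib (1.10, SE 0.10, adjusted p = 0.000518). Il31ra, the gp130-like chain that joins Osmr to receive interleukin 31, had 337, 279 and 328 against 169, 134 and 143 (1.08, SE 0.13, adjusted p = 0.00123). Neither overlapped between the groups. Osmr, its partner in that receptor, also had more in nasal, and the ligand Il31 did not pass (0.39, SE 0.14, adjusted p = 0.0795).

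The kinases that act at these receptors were among the clearest differences. Jak1, the kinase on which gp130 depends most, had 5624, 5462 and 5864 in nasal and 2335, 2208 and 2211 in rib (1.33, SE 0.08, adjusted p = 0.000198). Jak2 had 2728, 3087 and 3222 against 1130, 1216 and 1186 (1.35, SE 0.10, adjusted p = 0.000275). The third kinase used by gp130, Tyk2, was dimmer and lower in nasal, with 171, 144 and 148 against 236, 206 and 210 (-0.50, SE 0.11, adjusted p = 0.0147). The groups did not overlap for any of the 3, but Tyk2 lost its call without nasal replicate 2 (adjusted p = 0.0591) and without rib replicate 1 (adjusted p = 0.0567). Jak3, the kinase of lymphoid cytokine receptors, was higher in nasal as well (1.16, SE 0.10, adjusted p = 0.000445).

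Of the 13 kinases, STATs and adaptors, 8 were higher in nasal and 2 in rib (7 to 9 and 1 to 2 over the alternatives). Stat4, a factor of interleukin 12 signalling, had the largest difference of the list (2.02, SE 0.12, adjusted p = 0.000184), with rib values of 58.7 to 64.2. All 3 of these lay below the first quartile of their arrays with no detection call, and the difference was 1.42 on the scale of log2(intensity + 50). Stat6, which answers interleukin 4, was higher in rib with 396 against 610 (-0.62, SE 0.09, adjusted p = 0.00310). It was the only STAT gene of the list that passed with more in rib. Stat2 (0.43, SE 0.09, adjusted p = 0.00993) and Stat5a (0.45, SE 0.09, adjusted p = 0.00922) were among those higher in nasal. Stat5b did not pass (0.06, SE 0.12, adjusted p = 0.725). The STAT genes therefore did not all move together.

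**Figure D4:**
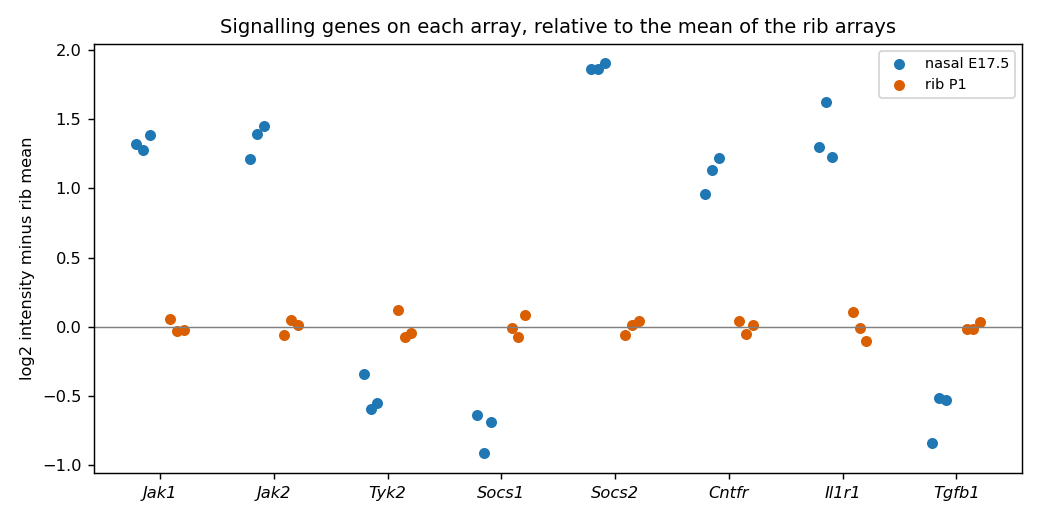
Log2 intensity of 8 pathway genes on each array, relative to the mean of the 3 rib arrays of that gene (the line at 0), with nasal arrays in blue and rib arrays in orange. Jak1, Jak2, Socs2, Cntfr and Il1r1 have all nasal points above their rib points, while Tyk2, Socs1 and Tgfb1 have all nasal points below them.

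The feedback inhibitors were divided. Socs2, which restrains growth hormone signalling, had 2939, 2941 and 3028 in nasal and 779, 818 and 836 in rib (1.87, SE 0.08, adjusted p = 6.63e-05). Socs1, an inhibitor of Jak kinases best known from interferon signalling, was higher in rib, with 579, 478 and 561 in nasal and 896, 855 and 955 in rib (-0.75, SE 0.11, adjusted p = 0.00286). Socs3, with its nasal excess of 0.67, thus stood with Socs2 and against Socs1. Cish, an inhibitor of Stat5 signalling, had 242 against 129 (0.91, SE 0.13, adjusted p = 0.00245).

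Of the 16 genes of feedback and receptor shedding, 7 were higher in nasal and 4 in rib (5 to 8 and 3 to 5 over the alternatives). Ptpn2, a phosphatase that acts on Jak1 and on STATs, had 1744 in nasal and 1082 in rib (0.69, SE 0.10, adjusted p = 0.00279). Pias3, named as an inhibitor of activated Stat3, was the reverse, with 402 against 747 (-0.89, SE 0.09, adjusted p = 0.000785), as was its relative Pias4 (-0.65, SE 0.09, adjusted p = 0.00195). Adam17, a protease that sheds the interleukin 6 receptor from cells, was higher in rib (-0.49, SE 0.10, adjusted p = 0.0118), a call lost without rib replicate 2 (adjusted p = 0.0549). Erap1, an aminopeptidase linked to shedding of cytokine receptors, was higher in nasal (0.89, SE 0.13, adjusted p = 0.00330).

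Genes known to respond to Stat3 in other tissues did not share 1 direction. Of 30 measured, 12 were higher in nasal, 4 higher in rib and 14 did not pass (10 to 14 and 3 to 6 over the alternatives), and their median difference was 0.25, beside 0.11 for all genes. Steap4, a metalloreductase induced in inflammation, had 837, 1175 and 1048 in nasal and 208, 213 and 225 in rib (2.23, SE 0.14, adjusted p = 0.000184). Fgg, the gamma chain of fibrinogen and a hepatic acute-phase gene, had 444, 361 and 420 against 84.0, 72.6 and 116 (2.19, SE 0.18, adjusted p = 0.000422), and 2 of its 3 rib values lay below the first quartile of their arrays. Icam1, an adhesion molecule (2.11, SE 0.19), and Lcn2, an iron-sequestering lipocalin (2.03, SE 0.14), completed the 4 at the top of the nasal side. Icam1 and Lcn2 are known to answer NF-kB as well.

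On the rib side of this list stood Vegfa, the vascular growth factor, with 4242, 3864 and 4042 in nasal and 6500, 6190 and 5528 in rib (-0.58, SE 0.10, adjusted p = 0.00548). Cebpb, a transcription factor of the acute-phase response, was higher in rib (-0.52, SE 0.11, adjusted p = 0.0125), and Pim3, a survival kinase, likewise (-0.44, SE 0.08, adjusted p = 0.00826). Cebpb lost its call without rib replicate 1 (adjusted p = 0.0511). Orm1, an acute-phase glycoprotein, was the dimmest of the 4, with 112 against 174 (-0.63, SE 0.17, adjusted p = 0.0338), and was not called in 4 of the 6 fits that left out 1 array.

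The last list held cytokines known to induce Il11 or Il6, with their receptors. Tgfb1, a well-known inducer of Il11 in connective tissue cells, was higher in rib, with 1431, 1797 and 1779 in nasal and 2533, 2533 and 2631 in rib (-0.63, SE 0.11, adjusted p = 0.00703). Its receptor chain Tgfbr1 ran the other way, with 1664 against 1133 (0.56, SE 0.08, adjusted p = 0.00284). Il1r1, the receptor of interleukin 1, had 2631, 3281 and 2500 in nasal and 1151, 1060 and 996 in rib (1.38, SE 0.13, adjusted p = 0.000562). Of the 13 genes, these 2 receptors passed with more in nasal, Tgfb1 passed with more in rib, and 10 did not pass. The interleukin 1 genes Il1a (52 in nasal against 44 in rib) and Il1b (96 against 92) were dim and among those 10. Any part of these genes in the differences of Il11, Il6 or Lif was not tested.

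Markers of other cells that make or answer these cytokines were read beside the results. The 9 measured macrophage and osteoclast markers summed to 2786 to 3012 in nasal and 2624 to 2753 in rib. By limma 0 were higher in nasal and 1, Ctsk, in rib (2 and 1 at an unadjusted p under 0.05). Differences of 8 of the 9 were on the nasal side, with a median of 0.21 over the list. The 6 endothelial markers summed to 792 to 1241 in nasal and 567 to 696 in rib. Of these, 2 were higher in nasal, Cdh5 (219 against 106) and Emcn (160 against 64.8). All rib values of Emcn, 57.5 to 69.5, lay below the first quartile of their arrays. Nasal replicate 1 had the highest value of each of the 6. The 8 fibroblast and perichondrial markers summed to 25436 to 27502 and 25520 to 30846, with 3 higher in rib. The 6 skeletal muscle markers summed to 1009 to 1275 in nasal and 1532 to 1842 in rib. Tnnt3 (322 against 764) and Acta1 (237 against 356) were higher in rib, and the other 4 did not pass. Differences of 3 of the 6, Myog, Myh8 and Myh3, were on the nasal side, and the median of the list was 0.09. Of the other lists, granulocyte markers had 0 of 6 past the threshold (1 at an unadjusted p under 0.05), respiratory epithelial markers 1 higher in each cartilage, osteoblast markers 2 higher in nasal and erythroid markers 1 higher in rib. The part of these cells in the differences above was not tested, and in bulk RNA fewer cells of a type and less RNA per cell cannot be told apart.

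The genes most like Il11 across the 6 arrays were found by Pearson correlation of log2 intensity among 2584 named genes that spanned at least 1 on that scale. The 5 at the top were Gclc, Slc19a1, Eps8l2, Ostm1 and Psrc1, at 0.998 to 0.999. Gclc, a subunit of the enzyme that limits glutathione synthesis, had 1233, 1234 and 1302 in nasal and 2855, 2633 and 2493 in rib. Slc19a1, a folate carrier, had 885, 893 and 910 against 2072, 1975 and 1892. Differences of the 5 ran from -1.19 to -1.03, beside -2.76 for Il11. The 6 points fall into 2 separate groups, so the correlation holds the group difference itself.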

How the data were processed

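RNA from the 2 cartilages was hybridised, 1 sample per array, to Affymetrix arrays that read whole transcripts (per the labels' protocols). Deposited by the authors was 1 table of intensity values on a linear scale for the 6 arrays, and the submitters' processing notes name RMA without settings. The genome build is not given in the sources used here, nor are the RMA steps. Of 28451 probe sets, 24935 matched 1 symbol in the RefSeq table of GRCm38.p6 (names only), and the probe set of highest mean was kept for each of 19932 genes. Values were turned to log2 without a pseudocount.

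Nasal minus rib differences were fitted with limma 3.58.1 in R 4.3.3 (lmFit and eBayes, no covariate, all 6 arrays), with Benjamini-Hochberg adjustment over all genes at 0.05. The script was tested on simulated data. An exact permutation test of 3 against 3 arrays cannot go below 0.1 and was not used. The number of arrays limits the precision. The members, the gene lists and the marker lists were chosen with earlier results of these data known. Text names all members, up to 4 genes past the threshold per list and direction or the 2 brightest where none passed, Jak1, Jak2, Tyk2, Tgfb1 and Cntfr, and the 5 genes most like Il11, and 2 genes under this rule are not reported here. Other genes named, such as Il31 and the markers, were picked once their values had been seen. Alternatives were quantile normalization, median centring, cyclic loess, trend and robust, a filter at the median gene, other probe set rules, log2(intensity + 50), the replicate block and leaving out each array. Motifs were searched on both strands in the 250 bases before each start in RefSeq promoters.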

Additional observations from a re-analysis of the deposited data

How the results depend on the processing

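Leaving out 1 array moved the count of all genes past the threshold between 3466 and 5764, with 1639 to 2596 higher in nasal and 1827 to 3168 higher in rib. The lowest counts came without rib replicate 2. Of the 84 other pathway genes, 36 to 49 passed over all alternatives, beside 42 as reported. The median difference of the 9 members moved beyond the spread between replicates under cyclic loess alone, to 0.80. Clcf1, which did not pass, turned sign under median centring (-0.015) and ranged from -0.0858 (without rib replicate 1) to 0.1111 as single arrays were left out. Correlations of deviations between arrays of the same replicate number were -0.02, 0.22 and -0.28, beside -0.37 to 0.38 between arrays of different numbers. With 3 arrays per group, such values do not settle whether the numbers pair the samples. With the replicate block 3903 genes and 37 of the pathway genes passed, and Orm1 lost its call (adjusted p = 0.0885). Of 28 pathway genes that the naming rule picked and that passed, 24 stayed past it in every alternative that tested them, the exceptions being Tyk2, Adam17, Cebpb and Orm1. The cause of these losses was not tested. No detection call was used, so the dim Il6 values limit what its difference shows.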

Other observations

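Several genes of the pathway lie next to a relative in the genome, with 0 protein-coding genes between them in the RefSeq table, and these neighbours did not share 1 difference. Osm and Lif are such a pair, and Osm, the ligand of Osmr, had 113 in nasal and 96.7 in rib (0.22, SE 0.19, limma adjusted p = 0.412) beside 1.20 for Lif. Osm was dim, with nasal replicates 2 and 3 and rib replicate 1 below the first quartile of their arrays. With no detection call, whether Osm stood above background is unknown. Osmr and Lifr, at 1.26 and 0.16, are another pair. Il6st and Il31ra, at 0.46 and 1.08, were both higher in nasal. In the run of Stat5b, Stat5a and Stat3 the differences were 0.06 (adjusted p = 0.725), 0.45 (limma adjusted p = 0.00922) and 1.15. Osm, Stat5a and Stat5b were named here after their values were seen.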
